A study of Mus musculus with 6 samples.

Results

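Levels of 10 genes that draw, expand or arm neutrophils were followed in mouse fibroblast-like synoviocytes in culture, which are stromal cells from the lining of the joint: the chemokine genes Cxcl1, Cxcl2, Cxcl3 and Cxcl5, the growth factor genes Csf2 and Csf3, and Camp, S100a8, S100a9 and Lcn2, which encode antimicrobial proteins and alarmins. All 10 were measured, among 22180 genes in all. A gene was read from the probe set that the platform annotation gives to it alone, and Csf2, which has a pair of them, from the one with the higher mean over the 6 arrays. The members were chosen partly on measured values, since the list was drawn up with earlier group differences on these same arrays known, so their differences describe these arrays and are no independent support for a direction.

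The cells came from knee synovium of C57BL6 mice and were between passages 4 and 8. In the Ad-Epas1 group (3 arrays) they had received an adenovirus carrying Epas1, the gene of the oxygen-regulated transcription factor HIF-2alpha, and in the Mock group (3 arrays) an empty adenovirus. Both groups were therefore infected, in each case for 2 h at a multiplicity of infection of 800, and RNA was taken after a further 24 h of culture. Age and sex of the mice are not given, nor whether the replicates came from separate animals, so the p-values rest on a spread between samples that may be partly technical. Epas1 itself stood at 13.14, 13.15 and 13.11 in Ad-Epas1, against 8.67, 8.71 and 8.51 in Mock, in log2 expression values.

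Neutrophils leave the blood and enter inflamed joints along gradients of CXC chemokines that carry a glutamate-leucine-arginine motif, to which all of Cxcl1, Cxcl2, Cxcl3 and Cxcl5 belong. These bind the receptor Cxcr2 on the neutrophil. The growth factors encoded by Csf3 (G-CSF) and Csf2 (GM-CSF) act further back, on the production, release and survival of the cells. S100a8 and S100a9 form calprotectin, Lcn2 binds the iron carriers of bacteria, and Camp is cut to the antimicrobial peptide CRAMP. Neutrophils store all of these proteins, and several are also made by activated fibroblasts and macrophages. Many of the genes are known targets of NF-kB and of interleukin-17 signalling.

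The arrays were not alike within a group. All 20 measured macrophage markers were lowest on Ad-Epas1 replicate 3. Their summed level, on the log2 scale, was 15.90, 15.66 and 11.94 on Ad-Epas1 replicates 1, 2 and 3, against 15.93, 15.61 and 15.63 on Mock replicates 1, 2 and 3. The submitters' flow cytometry found under 1% CD14+ cells, yet on the other 5 arrays all 20 markers lay above 6.61, the 95th percentile of 1373 olfactory and vomeronasal receptor genes, which serves here as a scale for genes not expected in these cells. On Ad-Epas1 replicate 3, 8 of the 20 lay at or below it, among them Adgre1 (5.89) and Ptprc (5.76), while Cd68 stood at 10.16. All 13 fibroblast markers lay above that scale on each array. Over all arrays no macrophage marker rose and 4 fell, and of the fibroblast markers 2 rose and 3 fell. Of all genes, 6.57% rose and 9.75% fell. Without Ad-Epas1 replicate 3, 10.3% of all genes rose and 14.0% fell. In that fit 2 fibroblast markers rose and 6 fell. Of the macrophage markers, 5 fell in that fit, with log2 fold changes of -2.36 (Mrc1), -1.65 (C1qa), -1.51 (C1qc), -0.95 (C1qb) and -0.53 (Aif1). Another 3 rose (Clec4n by 2.31, Cd14 by 1.48 and Cybb by 0.81 on the log2 scale). Macrophage genes thus changed in both directions in the fit in which more of the 10 genes passed. Their part in those results was not tested. In arrays of whole cultures, fewer cells of a type and less RNA per cell cannot be told apart. Results of the 10 genes are therefore given with and without Ad-Epas1 replicate 3, and those of other genes only in part.

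Of the 10 genes, 5 rose in Ad-Epas1 cells (Cxcl1, Cxcl2, Cxcl3, Camp and Lcn2), none fell and 5 did not pass the test, which was limma over all genes with a Benjamini-Hochberg adjusted p under 0.05. Among all genes 6.57% rose and 9.75% fell. The median log2 fold change was 1.23 over the 10 genes and 0.05 over all genes. For 6 of the 10 every Ad-Epas1 array lay above every Mock array, which held for 21.3% of all genes, and for none every Ad-Epas1 array lay below every Mock array, against 18.4% of all genes. Without Ad-Epas1 replicate 3 the count of risen genes was 7, Csf3 and S100a8 being added, where 10.3% of all genes rose and 14.0% fell. It was 5 without Mock replicate 1, where 4.75% of all genes rose. Each of the other 4 arrays, left out singly, took the count down to 1, which was Camp each time. The share of all genes that rose was lower in those fits too, at 3.76% and 2.65% with replicate 1 or replicate 2 of Ad-Epas1 left out, and 1.92% and 1.88% with replicate 2 or replicate 3 of Mock left out.

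**Figure D1:**
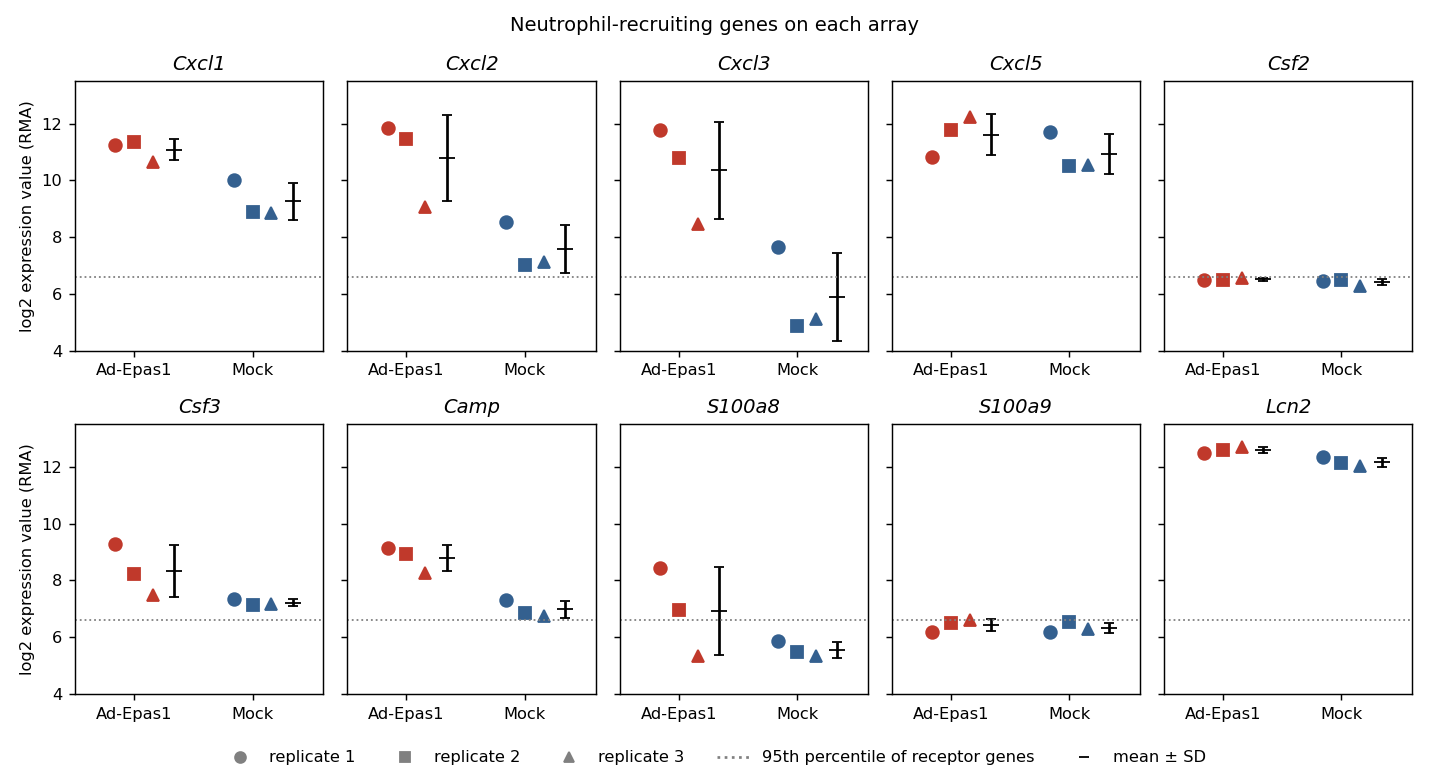
Log2 expression values of the 10 genes on each array (vertical axis), with Ad-Epas1 left and Mock right in each panel, 1 point per array and the mean ± SD of 3 arrays beside it. Cxcl1, Cxcl2, Cxcl3, Csf3, Camp and Lcn2 have all Ad-Epas1 points above all Mock points, whereas Csf2 and S100a9 stay under the dotted line, the 95th percentile of receptor genes (6.61).

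Cxcl3 had the largest difference of the 10. It stood at 11.79, 10.79 and 8.47 on Ad-Epas1 replicates 1, 2 and 3, against 7.67, 4.88 and 5.10 on Mock replicates 1, 2 and 3. The groups did not overlap, but each spread widely, with Ad-Epas1 replicate 3 the low array of its group and Mock replicate 1 the high array of its own. The log2 fold change was 4.47 (SE 1.03, limma, adjusted p = 0.031), or 22.1-fold. The levels of Mock replicates 2 and 3 lay under the receptor genes' 95th percentile, so the size of this fold is not exact. It was 5.41 without Ad-Epas1 replicate 3 (SE 0.83, adjusted p = 0.0051), 5.36 without Mock replicate 1 and 3.75 without Ad-Epas1 replicate 1.

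Cxcl2 had the same order of arrays at the extremes. Its level was 11.84, 11.45 and 9.06 on the Ad-Epas1 arrays, against 8.55, 7.03 and 7.14 on the Mock arrays. All Ad-Epas1 arrays were above all Mock arrays, and replicate 3 of Ad-Epas1 lay closer to Mock replicate 1 than to the other Ad-Epas1 arrays. Its log2 fold change came to 3.21 (SE 0.77, adjusted p = 0.035), or 9.25-fold, and 4.07 without Ad-Epas1 replicate 3 (SE 0.44, adjusted p = 0.0015).

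Cxcl1, the third of these neutrophil attractants, stood at 11.25, 11.36 and 10.65 in Ad-Epas1, against 10.02, 8.90 and 8.86 in Mock. Its Ad-Epas1 arrays lay within 0.71 of each other, a narrower spread than that of the Mock arrays (1.16). On the log2 scale Cxcl1 rose by 1.82 (SE 0.34, adjusted p = 0.016), or 3.54-fold, and 2.04 without Ad-Epas1 replicate 3 (adjusted p = 0.0069). Cxcl1, Cxcl2 and Cxcl3 each lost the call when Ad-Epas1 replicate 1, Ad-Epas1 replicate 2, Mock replicate 2 or Mock replicate 3 was left out, with adjusted p up to 0.071, 0.13 and 0.12. These genes resemble each other in sequence, and whether a probe set also reads a neighbour's transcript was not tested.

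The promoters of these chemokine genes are shown because the genes rose together and share a known NF-kB element. RefSeq windows from 250 bases before to 50 after the start were searched, and 8 of the 10 genes had a window (GRCm38.p6). The kappaB consensus was found in 3 of the 8, those of Cxcl1, Cxcl2 and Cxcl3, and in 4.51% of 32851 windows of all genes, on either strand. In each of the 3 it was the same run, GGGAATTTCC on the plus strand, overlapped by a match on the minus strand that begins 1 base further. It began 71 bases before the start in Cxcl1, 97 in Cxcl2 and 73 in Cxcl3. The lines give the 200 bases before each start, 5′ to 3′ on the plus strand, with the bases of both matches in capitals (Cxcl1 at chr5:90891045-90891244, Cxcl2 at chr5:90903699-90903898 and Cxcl3 at chr5:90785901-90786100).
Cxcl1: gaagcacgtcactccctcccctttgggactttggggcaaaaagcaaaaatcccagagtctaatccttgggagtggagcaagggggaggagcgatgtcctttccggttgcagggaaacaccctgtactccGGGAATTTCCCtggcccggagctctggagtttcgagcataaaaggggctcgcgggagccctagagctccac
Cxcl2: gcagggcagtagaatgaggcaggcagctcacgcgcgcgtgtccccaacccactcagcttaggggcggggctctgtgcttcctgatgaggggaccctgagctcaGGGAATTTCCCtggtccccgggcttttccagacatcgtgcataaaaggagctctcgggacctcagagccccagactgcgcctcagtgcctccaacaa
Cxcl3: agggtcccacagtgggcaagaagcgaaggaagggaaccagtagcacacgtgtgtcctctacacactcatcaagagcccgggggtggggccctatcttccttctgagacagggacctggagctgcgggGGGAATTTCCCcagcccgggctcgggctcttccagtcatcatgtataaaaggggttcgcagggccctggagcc
The HIF core ACGTG was present in the windows of Cxcl1 and Cxcl3 (2 of 8, and 19.6% of all windows), and the variant GCGTG in that of Cxcl2 (1 of 8, and 32.4% of all windows), both strands searched. The C/EBP consensus TTGCNNAA was in 3 of 8 windows, those of Csf2, S100a9 and Lcn2, and in 10.8% of all. The AP-1 consensus TGANTCA was in 0 of 8 and in 7.81% of all. These matches describe letters in a window and say nothing of binding in these cells.

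Cxcl5, the fourth chemokine gene, did not share this pattern. It stood at 10.81, 11.79 and 12.23 on Ad-Epas1 replicates 1, 2 and 3, against 11.72, 10.52 and 10.53 on the Mock arrays. The groups overlapped, and Ad-Epas1 replicate 3, low for Cxcl2 and Cxcl3, was the highest array for Cxcl5. Its log2 fold change was 0.68 with a 95% interval from -0.39 to 1.76 (limma, adjusted p = 0.34), and it was 0.37 without Ad-Epas1 replicate 3 (adjusted p = 0.58).

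The 4 chemokine genes lie in 1 cluster of 7 protein-coding genes on chromosome 5, in the order Cxcl5, Ppbp, Pf4, Cxcl3, Cxcl15, Cxcl1 and Cxcl2 (RefSeq, GRCm38.p6). The 3 that rose are not next to each other throughout, since Cxcl15 lies between Cxcl3 and Cxcl1. Cxcl15, a lung chemokine, lay between 5.43 and 5.59 in Ad-Epas1, against 5.36 to 5.53 in Mock, all under the receptor genes' scale. Ppbp, the platelet basic protein gene, differed by -0.34 (95% interval from -0.92 to 0.24, adjusted p = 0.38). Pf4, platelet factor 4, stood at 12.04, 11.62 and 6.34 in Ad-Epas1, against 10.83, 8.57 and 8.50 in Mock, so that Ad-Epas1 replicate 3 was the lowest of all arrays. It did not pass over all arrays (0.70, adjusted p = 0.78) and differed by 2.53 without Ad-Epas1 replicate 3 (adjusted p = 0.039). Cxcl15, Ppbp and Pf4 were named for their place in the cluster.

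**Figure D2:**
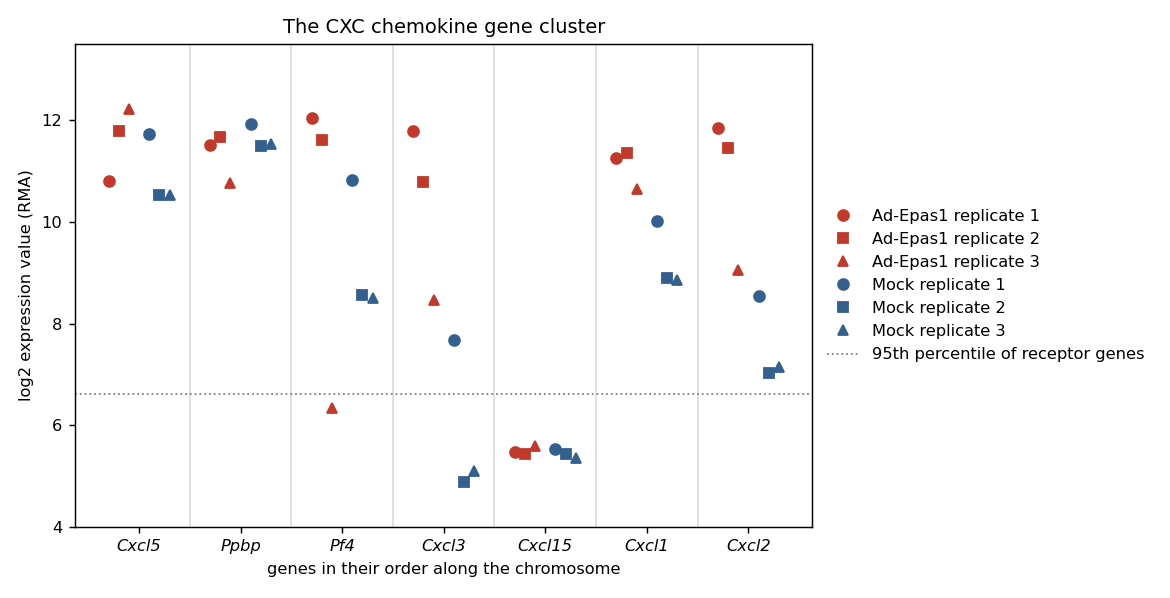
Log2 expression values (vertical axis) of the 7 genes of the CXC cluster in their order along chromosome 5 (horizontal axis), with the 3 Ad-Epas1 arrays left of the 3 Mock arrays for each gene and replicates told apart by marker shape. Levels are to be compared within a gene: Cxcl3, Cxcl1 and Cxcl2 have separate groups, Cxcl15 is under the dotted line on all arrays, and Pf4 has its lowest point (6.34) on Ad-Epas1 replicate 3.

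Among the growth factors, Csf3 stood at 9.29, 8.21 and 7.49 on Ad-Epas1 replicates 1, 2 and 3, against 7.36, 7.12 and 7.18 on the Mock arrays. The groups did not overlap, with the Ad-Epas1 arrays spread over 1.79 and the Mock arrays over 0.24. The log2 fold change of 1.11 (SE 0.41) did not pass over all arrays (adjusted p = 0.12). Without Ad-Epas1 replicate 3 it was 1.53 (SE 0.29, adjusted p = 0.011), or 2.89-fold.

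Csf2 depended on the probe set. The brighter probe set (17249636), which stands for the gene here, gave 6.49, 6.49 and 6.56 in Ad-Epas1, against 6.46, 6.50 and 6.29 in Mock. Its difference was 0.10 (95% interval from -0.09 to 0.28, adjusted p = 0.44), and 0.07 without Ad-Epas1 replicate 3 (adjusted p = 0.61). The dimmer one (17262816) gave 5.96, 5.62 and 5.50 in Ad-Epas1, against 4.76, 4.85 and 4.48 in Mock. All Ad-Epas1 arrays were above all Mock arrays on it, with a log2 fold change of 0.99 (SE 0.15, adjusted p = 0.0078, limma over all probe sets with 1 symbol). Both probe sets lay under the receptor genes' 95th percentile on each array.

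Camp, the gene of the cathelicidin precursor, had the smallest adjusted p of the 10. It stood at 9.14, 8.94 and 8.26 in Ad-Epas1, against 7.32, 6.86 and 6.76 in Mock. The groups were separated by more than the range of either one. On the log2 scale Camp rose by 1.80 (SE 0.25, adjusted p = 0.0063), or 3.48-fold, and 2.06 without Ad-Epas1 replicate 3 (adjusted p = 6.3e-04). It passed in all 6 fits with 1 array left out, with adjusted p up to 0.038.

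Lcn2, the gene of lipocalin 2, stood at 12.50, 12.59 and 12.70 in Ad-Epas1, against 12.33, 12.14 and 12.02 in Mock. The groups lay close but did not overlap, and Ad-Epas1 replicate 3 was the highest array. On the log2 scale Lcn2 rose by 0.43 (SE 0.10, adjusted p = 0.033), or 1.35-fold, and 0.38 without Ad-Epas1 replicate 3 (adjusted p = 0.045). With the replicate number as a block, Lcn2 did not pass (adjusted p = 0.078). The call also ended without Ad-Epas1 replicate 1 (0.055), Ad-Epas1 replicate 2 (0.10), Mock replicate 2 (0.12) or Mock replicate 3 (0.12), all adjusted p values of limma.

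The calprotectin genes did not move alike. S100a8 stood at 8.44, 6.97 and 5.35 on Ad-Epas1 replicates 1, 2 and 3, against 5.88, 5.48 and 5.34 on the Mock arrays. Ad-Epas1 replicate 3 was at the level of Mock, and this was the only one of the 10 genes on which that array was not above all Mock arrays. The log2 fold change of 1.36 had a 95% interval from -0.32 to 3.03 (adjusted p = 0.23). It was 2.14 without Ad-Epas1 replicate 3 (SE 0.40, adjusted p = 0.011) and 0.60 without Ad-Epas1 replicate 1 (adjusted p = 0.44), so the value rested on few arrays. All 3 Mock arrays and Ad-Epas1 replicate 3 lay under the receptor genes' 95th percentile, and the size of these differences is not exact. S100a9 stood at 6.19, 6.49 and 6.59 in Ad-Epas1, against 6.18, 6.53 and 6.28 in Mock. Its groups overlapped on values under the receptor genes' scale, and the difference was 0.09 (95% interval from -0.23 to 0.42, adjusted p = 0.67). Without Ad-Epas1 replicate 3 the difference of S100a9 was 0.009 (adjusted p = 0.97).

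**Figure D3:**
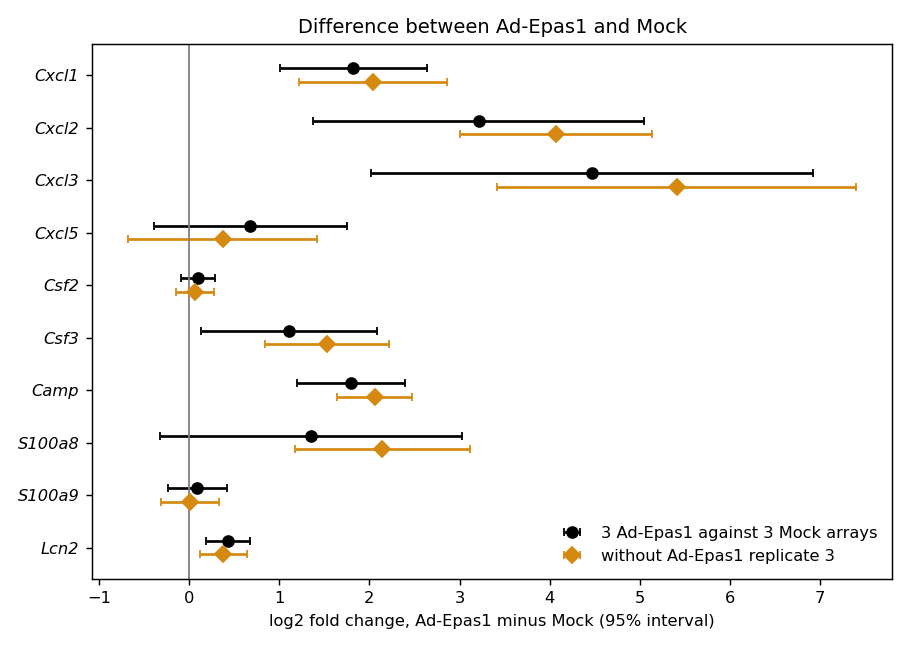
Log2 fold change of each gene, Ad-Epas1 minus Mock, with its 95% interval (horizontal axis), for 3 against 3 arrays (circles) and without Ad-Epas1 replicate 3 (diamonds). Leaving out that array moved the estimate of Cxcl3 to 5.41, of Cxcl2 to 4.07 and of S100a8 to 2.14, and the intervals of Cxcl5, Csf2 and S100a9 include 0 either way.

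Camp, Mmp8 and Mmp9 are also known from neutrophil granules, so the neutrophil markers are given beside these genes. Of the 14 measured, 2 rose (Camp and Prtn3) and none fell, and without Ad-Epas1 replicate 3 the risen ones were 4, with Mmp8 and Mmp9 added. Among all genes 6.57% rose over all arrays, and 10.3% without Ad-Epas1 replicate 3. Prtn3, proteinase 3, differed by 0.28 (adjusted p = 0.0495) and lost that call without Ad-Epas1 replicate 1, Ad-Epas1 replicate 2 or any single Mock array. The summed level of the 14 was 12.34, 11.75 and 10.48 on the Ad-Epas1 arrays, against 10.27, 10.14 and 10.03 on the Mock arrays (log2 scale). The median marker, by contrast, lay only 0.09, 0.07 and 0.20 above its Mock mean on the Ad-Epas1 arrays, so the sum reflects a few genes. The collagenase gene Mmp8 stood at 11.56, 10.73 and 6.24 in Ad-Epas1, against 7.30, 6.73 and 6.42 in Mock (4.33 without Ad-Epas1 replicate 3, adjusted p = 4.2e-04). The gelatinase gene Mmp9 stood at 9.64, 8.88 and 7.64 in Ad-Epas1, against 7.20, 7.21 and 7.25 in Mock (2.04 without Ad-Epas1 replicate 3, adjusted p = 0.0012). The defining markers Ly6g, Elane, Mpo, Ngp and Retnlg were at or under the receptor genes' 95th percentile on every array, and 9 of the 14 were. Of the markers of other cells, 0 of 7 endothelial, 0 of 6 mast cell and 0 of 5 T cell genes passed over all arrays. Without Ad-Epas1 replicate 3, 3 of the 7 endothelial markers rose, namely Tek (0.89, adjusted p = 9.7e-04), Vwf (0.32) and Pecam1 (0.48), and no mast cell or T cell marker did. In that fit 10.3% of all genes rose. The groups did not overlap for 4 of the 7 endothelial markers, higher in Ad-Epas1 each time, which held for 21.3% of all genes. Tek was under the receptor genes' scale on each array, and nothing is read from these small counts. The choice of Mmp8, Mmp9 and these defining markers as examples was made with their values in view.

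Ad-Epas1 replicate 3 was the lowest of its group for 6 of the 10 genes, as for 31.8% of all genes. Relative to the mean of replicates 1 and 2 it differed by -2.83 for Cxcl3, -2.58 for Cxcl2, -2.36 for S100a8, -1.26 for Csf3, -0.78 for Camp and -0.65 for Cxcl1 on the log2 scale. The other four genes went the other way or stayed level, with 0.08 for Csf2, 0.15 for Lcn2, 0.25 for S100a9 and 0.93 for Cxcl5. Across the 20 macrophage markers the same difference had a median of -3.73 and a range from -6.67 to -0.23. The 6 genes for which Ad-Epas1 replicate 3 was lowest in its group did not stand alike against the Mock mean. On that array Cxcl1 was 1.39, Cxcl2 1.49, Cxcl3 2.58, Camp 1.28 and Csf3 0.27 above it, while S100a8 differed from it by -0.22. The part of macrophages in these levels was not tested. That array lay above all Mock arrays for 9 of the 10 genes, as for 44.0% of all genes, and of the 9, S100a9 and Csf2 did so by small margins under the receptor genes' scale. Because the members were chosen with these arrays in view, nothing is read from that count.

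**Figure D4:**
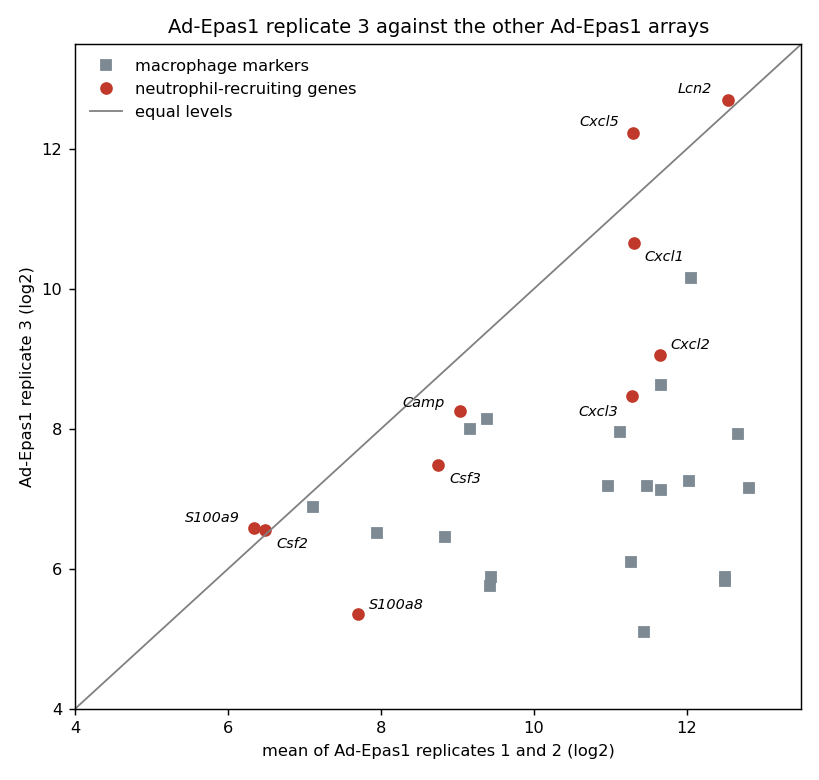
Level on Ad-Epas1 replicate 3 (vertical axis) against the mean of Ad-Epas1 replicates 1 and 2 (horizontal axis), both in log2 expression values, for the 10 genes (circles, named) and 20 macrophage markers (squares). All macrophage markers lie below the line of equal levels, with a median difference of -3.73, while Cxcl5, S100a9, Csf2 and Lcn2 lie on or above it.

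Within Mock, replicate 1 was the highest array for 8 of the 10 genes, which held for 42.3% of all genes. It exceeded the mean of Mock replicates 2 and 3 by 2.68 for Cxcl3, 1.46 for Cxcl2, 1.20 for Cxcl5 and 1.14 for Cxcl1, and by 0.51 or less for the other genes. The macrophage markers on it lay 0.17 above the mean of all 3 Mock arrays at their median, and the fibroblast markers 0.07. That baseline includes replicate 1 itself, unlike the one used for the 10 genes, so the sizes are not comparable. The part of these markers' cells in the high chemokine levels of this array was not tested.

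To find the genes with the most similar profiles over the 6 arrays, each profile was centred on its own mean and compared by the root mean square difference, among genes that varied by at least 1 on the log2 scale (2198 beside each of the genes named here). For Cxcl1 the closest was Rnd1 (0.15), followed by Hilpda (0.18) and Vegfa (0.21). For Cxcl2 it was Slc7a11 (0.25), followed by Arg2 and Il13ra2 (0.36 each). For Cxcl3 it was Cxcl2 (0.77), then Slc7a11 (0.81) and Acod1 (0.95), larger distances than those of the other chemokines. The profiles were not scaled, so a wide range can enlarge the distance. That range was 6.91 for Cxcl3, 4.81 for Cxcl2, 2.49 for Cxcl1 and 1.70 for Cxcl5. Csf3 lay nearest to Igfbp3 (0.10), Liph (0.11) and Slit1 (0.15), and Camp to Csrnp1 (0.10), Smox (0.12) and Hilpda (0.13). S100a8 lay nearest to H2-M2 (0.13), Slc6a12 (0.15) and Hamp (0.20). Cxcl5 had Olfr724 (0.24), Arrdc3 (0.29) and Angptl4 (0.30) as neighbours. These distances carry no test. Csf2, S100a9 and Lcn2 varied by less than 1 on the log2 scale, and no neighbours are named for them.

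Receptors and binding partners of these proteins formed the first of 4 lists read beside the 10 genes. Of 15 measured, 3 rose, 1 fell and 11 did not pass, with a median log2 fold change of 0.08. Among all genes 6.57% rose and 9.75% fell, which is 16.3% past the test, and 24.3% passed without Ad-Epas1 replicate 3. The share of all genes that rose was lower without Ad-Epas1 replicate 1 or 2 (3.76% and 2.65%). It was lower still without Mock replicate 2 or 3 (1.92% and 1.88%). Nothing is read from the counts of the 4 lists beside these shares, in any of the fits. Sdc4, a heparan sulfate proteoglycan of the kind that holds chemokines at the cell surface, rose by 0.59 (SE 0.07, adjusted p = 0.0035). Lrp2, an endocytic receptor that takes up Lcn2, rose by 2.34 (SE 0.37, adjusted p = 0.0098, all Mock arrays under the receptor genes' scale). Ackr3, listed here though it is an atypical receptor of other CXC chemokines than the 4 above, rose by 1.25 (SE 0.24, adjusted p = 0.018). Tlr4, which senses lipopolysaccharide and calprotectin, fell by 0.48 (adjusted p = 0.019). Cxcr2 itself differed by 0.13 (adjusted p = 0.31). The count past the test was 4 over all arrays, 6 without Ad-Epas1 replicate 3, 2 when either Mock replicate 2 or Ad-Epas1 replicate 2 was left out, and 1 without Mock replicate 3, where Lrp2 ended at an adjusted p of 0.0501. Ackr3 lost its call without Ad-Epas1 replicate 2, Mock replicate 2 or Mock replicate 3 (up to 0.076), and Tlr4 without Ad-Epas1 replicate 1 as well (up to 0.077).

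Of the 15 receptors and binding partners, 5 were lowest on Ad-Epas1 replicate 3 among the 6 arrays. No share of all genes is given for that count, and nothing is read from it. Among the 5 were a pair known from myeloid cells. The macrophage markers were lowest on that array too, and their part in these values was not tested. Csf2rb2, a beta subunit for GM-CSF family cytokines, stood at 10.58, 10.08 and 5.75 in Ad-Epas1, against 9.92, 9.92 and 9.89 in Mock. Fpr2, a formyl peptide receptor, stood at 10.46, 10.06 and 4.69 in Ad-Epas1, against 8.36, 5.64 and 6.19 in Mock. Neither passed over all arrays (adjusted p = 0.56 and 0.50), and Fpr2 differed by 3.53 without that array (adjusted p = 0.016), again with Mock replicates 2 and 3 under the receptor genes' scale and the size not exact. The choice of these receptors was made with their values in view.

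Inducers and transducers of the neutrophil programme formed the second list, of which 6 of 16 measured rose, 1 fell and 9 did not pass (median 0.26). Of all genes, 6.57% rose and 9.75% fell. The adaptor genes of interleukin-17 signalling Traf6 (0.92, SE 0.09, adjusted p = 0.0024) and Traf3ip2 (0.72, SE 0.09, adjusted p = 0.0048) rose. So did Nfkbiz (1.32, adjusted p = 0.0038), the nuclear cofactor of NF-kB through which interleukin-17 induces Lcn2, and the transcription factor gene Cebpb (0.52, adjusted p = 0.011). The remaining rises were those of Il17ra (0.44) and Rela (0.45). Il1r1, the interleukin-1 receptor, fell by 1.55 (SE 0.24, adjusted p = 0.0092). Of the interleukin-17 genes themselves, Il17a lay under the receptor genes' scale on each array and Il17f did not pass (adjusted p = 0.995). Il17rc, another interleukin-17 receptor gene, differed by -0.34 (adjusted p = 0.27), and by -0.55 without Ad-Epas1 replicate 3 (adjusted p = 0.017). Without Mock replicate 2 or Mock replicate 3 the count past the test was 4 in place of 7, Cebpb then standing at 0.058 and 0.057. Without Ad-Epas1 replicate 3 the count was 10 (8 risen and 2 fallen). Il1a stood at 12.32, 11.86 and 5.61 in Ad-Epas1, against 8.47, 5.65 and 5.80 in Mock, and passed only without Ad-Epas1 replicate 3 among the fits that left out 1 array (5.45, adjusted p = 0.0046), a size that is not exact because Mock replicates 2 and 3 lay under the receptor genes' scale. Il17ra lost its call in 3 and Rela in 4 of the fits with 1 array left out (adjusted p up to 0.093 and 0.095). Il1a, Il17a, Il17f, Il17ra, Il17rc and Rela were taken as examples with their values in view.

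The third list held genes that restrain such responses, by degrading cytokine transcripts, by inhibiting NF-kB, or by blocking cytokine receptors and their signals (Il1rn and Socs3). Of 8 measured, 4 rose, none fell and 4 did not pass (median 0.70), beside 6.57% risen and 9.75% fallen among all genes. Zc3h12a, a ribonuclease that cleaves cytokine transcripts, rose by 1.29 (SE 0.15, adjusted p = 0.0036). Nfkbia, the inhibitor that holds NF-kB in the cytoplasm, rose by 1.11 (adjusted p = 0.023), and the decay factor genes Zfp36 by 0.77 (adjusted p = 0.024) and Zfp36l1 by 0.63 (adjusted p = 0.023). The second probe set of Zfp36l1 gave 0.47 and did not pass (adjusted p = 0.098). Tnfaip3, a deubiquitinase that restrains NF-kB, differed by 1.04 (adjusted p = 0.067), and by 1.26 without Ad-Epas1 replicate 3 (adjusted p = 0.025), and it also passed without Mock replicate 1 (0.024). Without Ad-Epas1 replicate 1, Ad-Epas1 replicate 2, Mock replicate 2 or Mock replicate 3, 1 gene of the list passed, and without Ad-Epas1 replicate 3 the number was 6. Nfkbia, Zfp36 and Zfp36l1 lost their calls in each of those 4 fits (adjusted p up to 0.092, 0.090 and 0.096), and Zfp36 also without Mock replicate 1 (0.066).

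Other attractants and antimicrobial proteins formed the fourth list, with 1 of 20 measured genes risen, 3 fallen and 16 that did not pass (median -0.03). The shares of all genes that rose and fell were 6.57% and 9.75%. Slpi, a secreted inhibitor of neutrophil elastase, stood at 10.92, 9.93 and 9.90 in Ad-Epas1, against 8.31, 7.51 and 7.62 in Mock. Its groups lay well apart, with a log2 fold change of 2.44 (SE 0.33, adjusted p = 0.0057), which is 5.41-fold. The falls were those of Alox5, the enzyme that starts leukotriene synthesis (-1.05, SE 0.18, adjusted p = 0.013), and of the calcium-binding proteins S100a4 (means of 10.50 in Ad-Epas1 and 11.50 in Mock, adjusted p = 0.045) and S100a6 (-0.51, adjusted p = 0.035). Chil1, a secreted chitinase-like protein, differed by -0.63 (adjusted p = 0.065), and by -0.83 without Ad-Epas1 replicate 3 (adjusted p = 0.0048). It did not pass in the other fits with 1 array left out. The calls of S100a4 and S100a6 ended without Ad-Epas1 replicate 1, Ad-Epas1 replicate 2 or any single Mock array (adjusted p up to 0.14 and 0.13). The count past the test was 7 without Ad-Epas1 replicate 3, and 2 without Ad-Epas1 replicate 1, Ad-Epas1 replicate 2, Mock replicate 2 or Mock replicate 3, against 4 over all arrays. Slpi and Alox5 passed in all 6 fits with 1 array left out. For Alox5 this holds of the brighter probe set, whose Ad-Epas1 levels were under the receptor genes' scale. The dimmer one turned the direction (0.15, adjusted p = 0.20), and the mean over both gave -0.45 (adjusted p = 0.049).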

How the data were processed

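Total RNA (300 ng per array) was measured on Affymetrix whole-transcript arrays. Per the submitters' processing notes, the authors used RMA in Affymetrix Expression Console 1.3.1 to make the deposited log2 values, given per probe set. RMA makes the arrays' distributions nearly equal and hides shifts common to most genes. The array medians lay between 6.77 and 6.84. The sources used here do not give a genome build for the array. The number of arrays, not a read depth, limits the precision.

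Of 41345 probe sets, 23521 had 1 gene symbol, 1814 several and 16010 none. The Entrez identifiers of 23328 matched RefSeq, which changed 0 symbols. The brightest probe set stood for each of 22180 genes, with no filter on level. Groups follow the titles. limma 3.58.1 (R 4.3.3, lmFit and eBayes) compared 3 Ad-Epas1 with 3 Mock arrays, in a two-sided test, and p-values were adjusted by Benjamini-Hochberg over the 22180 genes. An exact permutation test of 3 against 3 cannot go below p = 0.1. Smallest root mean square differences between arrays of a group were 0.20 (Ad-Epas1) and 0.14 (Mock), so no array was counted as a repeat. No column of another sample was present (0).

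Members and lists were chosen with earlier results of these data known. Named genes were the 10 members, up to 5 members of each of 4 lists with the smallest p, and 3 profile neighbours of each member. Of the 60 list symbols, 59 were measured, and neither Nfkb1 nor the T cell marker Trac was analysed here. Alternatives were a replicate block, each array left out, other scalings, a filter on level, another variance prior, array weights and other uses of the probe sets.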

Additional observations from a re-analysis of the deposited data

Results flagged for a closer look

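The dimmer Csf2 probe set, which the gene-level comparison did not use, was higher on all 3 Ad-Epas1 arrays than on all 3 Mock arrays, with a log2 fold change of 0.99 (limma, adjusted p = 0.0078), at levels under the receptor genes' 95th percentile of 6.61. The brighter probe set of the same gene differed by 0.10. Which of them follows the Csf2 transcript was not tested. Groups of 3 arrays are too small for a formal search for single outlying arrays. By root mean square difference over all genes, Ad-Epas1 replicate 3 lay 0.51 and 0.45 from replicates 1 and 2 of its group. Those lay 0.20 apart, and the Mock arrays lay 0.52 to 0.53 from Ad-Epas1 replicate 3.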

How the results depend on the processing

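Over the fits that left out 1 array each, the number of the 10 genes that rose ranged from 1 to 7 (5 over all arrays), and the number of genes of the 4 pathway lists past the test from 8 to 29 (19 over all arrays). With a trended, robust variance prior the number was 3 of the 10, Cxcl2 and Cxcl3 standing at adjusted p of 0.087 and 0.083. Array weights gave 33 pathway genes, and leaving out Mock replicate 1 and Ad-Epas1 replicate 3 together, an alternative chosen after seeing the data, gave 33 as well. In that fit with both arrays left out S100a9 stood at -0.065 (adjusted p = 0.76), against 0.09 over all arrays. Tested separately over all probe sets, the dimmer probe set of Alox5 stood at 0.15, against -1.05 for the brighter one. The cause was not tested. The mean over probe sets brought Csf2 past the test (0.54, adjusted p = 0.016), and a second quantile step took Lcn2 out (0.067). The count of fallen members was 0 in every fit run. Deviations of same-numbered arrays from their group means correlated by 0.34, -0.19 and 0.21 over 22180 genes. With 3 arrays per group such deviations depend on each other, so these values cannot settle whether the replicate numbers pair the arrays. With the replicate block, 4 of the 10 genes rose (Lcn2 lost) and 23 pathway genes passed. No share of all genes past the test is given for the prior, the weights, the block or the fit without both arrays. The counts from those fits are therefore not read as results about these genes. Levels near or under the receptor genes' scale, as of Csf2 and S100a9 on all arrays and of S100a8 on all Mock arrays, limit what these arrays can show.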
